A study of Homo sapiens with 18 samples.

Results

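The interaction of interferon and doxycycline was measured in KRAB-D9, a derivative of K562, the human chronic myeloid leukaemia line that resembles early erythroid cells. In KRAB-D9, doxycycline switches on dCas9-KRAB, a nuclease-dead Cas9 fused to a transcriptional repressor domain. The interaction is the log2 change that interferon alpha made in cells on doxycycline minus the log2 change that it made in cells without it. All 18 libraries of the series entered 1 fit, which shares an estimate of the spread. For every gene the interaction compares 8 of them, those of the 4 KRAB-D9 groups, each with 2 libraries. These groups were untreated cells, cells given interferon alpha at 1000 U/mL for 24 hours, cells given doxycycline at 2 µg/mL, and cells given both. With both agents, doxycycline was started 24 hours before interferon and was kept on. All 4 groups carry the same inducible fusion. No group of parental K562 cells on doxycycline was analysed here, so an action of doxycycline itself and one of the induced fusion cannot be told apart. The sources used here do not give how long doxycycline was present in the group without interferon, whether D9 is 1 clone, or which guide it carries. The labels name SAMD9 as the gene that interferon was used to induce.

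Type I interferon binds the IFNAR receptor and activates the kinases JAK1 and TYK2. They activate the transcription factor complex ISGF3, which contains STAT2 and IRF9. That complex binds interferon-stimulated response elements in the promoters of many antiviral genes, among them MX1, the OAS enzymes and ISG15. SAMD9 and its neighbour SAMD9L are interferon-inducible restrainers of cell growth and of poxvirus replication. An interaction on the log2 scale can come from either end of the response. If doxycycline had already raised a gene before interferon and the interferon-treated levels met, the log2 response is smaller although the same level was reached. If doxycycline changed the level reached under interferon, the interaction lies at the treated end. Each gene was therefore described by its start-level difference (doxycycline minus untreated), by its treated-level difference (both agents minus interferon alone), and by the interaction, which equals the second minus the first. The start and treated differences share no library with each other, but both enter the interaction, so the placing is a description.

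The 8 libraries held 32694200 to 59653278 counts. The defining erythroid markers were present at 1 CPM (a count scaled to the library size with edgeR's TMM factors) or more in every group, 7 of 7, with a summed level of 1370 to 1860 CPM. The sum of 4 lymphoid markers was 2.98 to 7.37 CPM. That of 5 myeloid markers was 30.5 to 59.5 CPM, and that of 6 fibroblast or epithelial markers 116 to 180 CPM. The 2 libraries given interferon alone stood apart from each other: they differed by 8.22 times counting noise, against 4.09 to 5.58 times in the other 8 groups of the series. Replicate 1 of that group was the shallowest library, with 32694200 counts and 4.12% mitochondrially encoded counts against 3.403% in replicate 2. Both libraries enter every interaction. Whether the 2 libraries of a group are separate cultures is not stated, and the p-values cover only the spread between these samples, which may be technical.

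Few genes passed the test of the interaction, and most of those differed at the start. Of 22143 genes tested, 35 were called (0.158%). The test was edgeR's quasi-likelihood F test, with p adjusted by Benjamini-Hochberg across the table and a threshold of 0.05. The interaction was positive for 14 genes (0.0632%) and negative for 21 (0.0948%). Its sign does not give the size of the response. SLC2A3, with a positive one, fell by 0.64 without doxycycline and changed by 0.02 with it. An unadjusted p under 0.05 was reached by 1987 genes. Far more genes differed with doxycycline, 5469 at the start (24.7%: 12% higher and 12.7% lower) and 4929 under interferon (22.3%: 10.4% higher and 11.9% lower). Interferon moved 1417 genes without doxycycline (6.4%; 3.98% higher and 2.42% lower) and 1082 with it (4.89%; 3.12% higher and 1.77% lower). The median standard error of the interaction was 0.118 over 13336 genes at 1 CPM or more, against 0.0829 for the start difference, since 4 groups enter it.

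Of the 35 called genes, 17 differed with doxycycline at the start only, 4 under interferon only and 14 at both ends. Each of the 35 was called in at least 1 of these differences. The doxycycline difference was narrower under interferon for 26 of the 35 and wider for 9. Among all genes tested, 52.5% had the narrower difference under interferon. The signs of the start and treated differences were opposite for 13. In all 17 genes called at the start only, the doxycycline and untreated libraries did not overlap. For 12 of them the libraries under interferon did. The same libraries gave the calls, so these overlaps restate the placing. They were not counted over all genes. Of these 17, doxycycline had raised 10 and lowered 7 before interferon. In the 14 genes called at both ends it had raised 3 and lowered 11. When a gene was placed by the larger of its differences in place of the test, 26 fell at the start and 9 at the treated level.

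**Figure D1:**
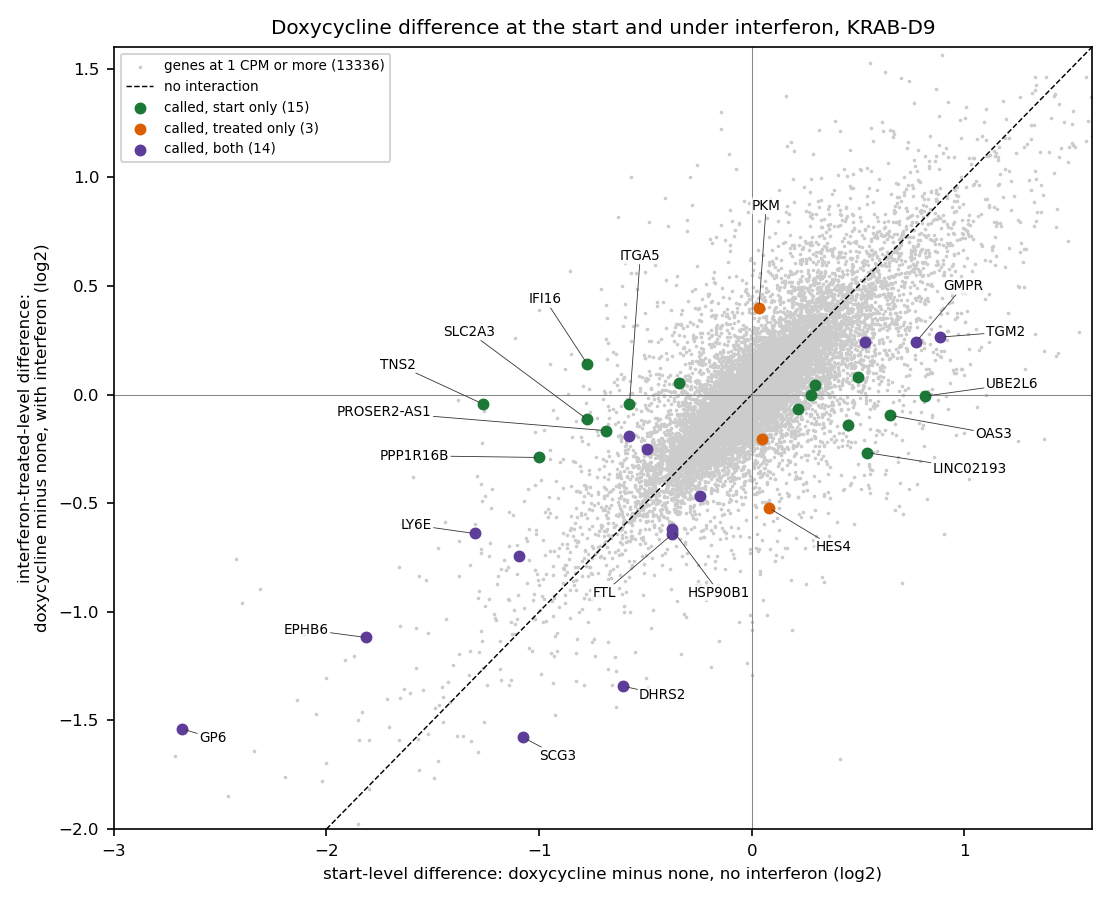
Start-level difference (x axis) against treated-level difference (y axis) of doxycycline in KRAB-D9, both log2. Grey points are the 13336 genes at 1 CPM or more, of which 49 lie outside the axes; coloured points are the 32 called genes at that level, 15 at the start only, 3 under interferon only and 14 at both. The vertical distance from the dashed line is the interaction, and the start-only genes lie along the horizontal zero line.

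SAMD9 itself shows both ends. It lies on chromosome 7 at 93099513 to 93118023 (GRCh38.p13). Its level was 0.750 and 0.364 CPM in untreated cells, 55.0 and 53.5 CPM with interferon, 0 and 0.117 CPM with doxycycline and 0.849 and 0.745 CPM with both. The interferon-treated libraries without doxycycline were thus above all others, and the libraries with both agents lay at the level of untreated cells. Doxycycline lowered SAMD9 by 3.23 ± 0.50 (log2 ± SE) at the start (adjusted p = 8.60e-06) and by 6.08 ± 0.11 under interferon (adjusted p = 5.40e-26). The interaction of -2.85 ± 0.87 was not called (adjusted p = 0.253 in edgeR). Only 6 counts stood behind the doxycycline group, all in replicate 2, and the value turned to 1.86 (adjusted p = 0.869) when that library was left out. It was -3.81 (adjusted p = 0.0357) without replicate 1, and DESeq2 called it at -2.80 (adjusted p = 0.00517). On the linear scale interferon added 53.7 CPM without doxycycline and 0.738 CPM with it.

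SAMD9L, on chromosome 7 at 93130056 to 93148385, kept most of its response. It was at 0.487 and 0.273 CPM untreated, 37.2 and 31.8 CPM with interferon, 0.837 and 0.429 CPM with doxycycline and 24.9 and 23.4 CPM with both. The start libraries overlapped and the interferon-treated libraries did not. The interaction was -1.20 ± 0.37 and was not called (edgeR, adjusted p = 0.249). Without doxycycline replicate 1 it was -0.65 (adjusted p = 0.804), and without replicate 2 of interferon alone it was called (-1.32, adjusted p = 0.0317). The start difference of 0.69 ± 0.35 missed the threshold (adjusted p = 0.162), and the treated difference of -0.51 ± 0.13 passed it (adjusted p = 0.00278).

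The bases just upstream of SAMD9, SAMD9L and 2 of the called interferon-stimulated genes are shown to let the response element be compared between a gene whose interferon-treated level doxycycline lowered most of the 4, its neighbour and genes that changed at the start. They are RefSeq promoter bases (GRCh38.p14), read 5′ to 3′ on the gene's strand. Capitals mark matches to the core of the response element, GAAA and GAAA with any 2 bases between them, searched on both strands. A promoter with several or overlapping matches counts once. SAMD9 is shown from chr7:93118024-93118125 (minus strand), SAMD9L from chr7:93148386-93148505 (minus strand), OAS3 from chr12:112938444-112938473 (plus strand) and CMPK2 from chr2:6866636-6866755 (minus strand).
SAMD9: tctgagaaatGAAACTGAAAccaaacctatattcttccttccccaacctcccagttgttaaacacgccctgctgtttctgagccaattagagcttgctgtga
SAMD9L: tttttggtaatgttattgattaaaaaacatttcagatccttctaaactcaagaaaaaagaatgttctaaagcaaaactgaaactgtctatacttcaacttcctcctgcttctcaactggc
OAS3: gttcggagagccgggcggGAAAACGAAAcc
CMPK2: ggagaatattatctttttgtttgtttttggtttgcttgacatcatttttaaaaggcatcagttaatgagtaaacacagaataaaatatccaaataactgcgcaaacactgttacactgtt

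In SAMD9 the match begins 136 bases before the RefSeq start site, and in OAS3 the match shown begins 12 bases before it. The SAMD9 bases shown stop short of that site, since bases within the gene span of the count table were left out. The OAS3 bases shown end at its RefSeq start site but lie inside its gene span in the count table (112938051 to 112976460). The 250 bases before the OAS3 start held 2 matches, of which 1 lies outside the bases shown. The 250 bases before the start sites of SAMD9L and CMPK2 held no match. Over all 27305 promoters of 300 bases in the table, 996 held the core (3.65%), and it was in 37 of the 63 listed interferon-stimulated genes that matched by symbol (58.7%). Among the 28 called genes with a promoter in the table, 3 held it (10.7%): OAS3, IFITM1 and EIF2AK2. None of the 22 called genes outside the interferon list held it. Of the 12755 tested genes with a promoter in the table, 372 held it (2.92%). With so low a share, none of 22 is not read as a result. A match is a run of letters in this window and no measure of binding.

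Of the 7 called genes on the list of interferon-stimulated genes, all but LY6E differed at the start only. Doxycycline raised UBE2L6, OAS3, CMPK2, IFITM1 and EIF2AK2 before interferon and lowered IFI16, and the interferon-treated levels of these 6 genes were not called different. UBE2L6, the conjugating enzyme that attaches ISG15 to proteins, lies on chromosome 11 at 57551656 to 57568284. It was at 6.19 and 6.78 CPM untreated and 11.0 and 11.7 CPM on doxycycline, and reached 144.8 and 134.5 CPM with interferon alone and 141.8 and 135.8 CPM with both. The libraries were apart at the start and overlapped under interferon. Its interaction was -0.82 ± 0.10 (edgeR, adjusted p = 8.24e-06), with a start difference of 0.81 ± 0.09 and a treated difference of -0.01 ± 0.06 (95% interval -0.12 to 0.11). On the linear scale interferon added 133.2 CPM without doxycycline and 127.5 CPM with it, a difference of -5.73 ± 6.0 CPM.

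OAS3 makes the 2′-5′ oligoadenylates that activate RNase L. It was at 4.01 and 5.03 CPM untreated and at 7.56 and 6.52 CPM on doxycycline. Interferon took it to 803.6 and 890.6 CPM without doxycycline and to 803.1 and 783.0 CPM with it. The response was large in both arms, log2 7.56 ± 0.08 and 6.82 ± 0.07, and the interaction was -0.75 ± 0.11 (edgeR, adjusted p = 5.67e-04). The call was lost without untreated replicate 1, the lower of the untreated libraries (adjusted p = 0.0679), and in limma voom with group weights (adjusted p = 0.111). The treated difference was -0.10 with a 95% interval of -0.20 to 0.01.

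CMPK2, a mitochondrial nucleotide kinase encoded beside RSAD2, was at 45.0 and 44.6 CPM untreated and 66.9 and 59.8 CPM on doxycycline. With interferon it was at 160.4 and 168.5 CPM, and with both at 179.1 and 168.6 CPM. Its interaction was -0.42 ± 0.08 (edgeR, adjusted p = 0.0103). EIF2AK2 encodes PKR, the kinase that halts translation on double-stranded RNA. It rose from 70.6 and 72.8 to 543.3 and 507.6 CPM without doxycycline and from 86.7 and 87.1 to 518.4 and 529.3 CPM with it (interaction -0.28 ± 0.06, adjusted p = 0.0422). IFITM1, which blocks the entry of viruses, had an interaction of -0.26 ± 0.05 (adjusted p = 0.0235) and a start difference of 0.30 ± 0.04. Reads of IFITM1 may be shared with its close copies IFITM2 and IFITM3. The calls of CMPK2, EIF2AK2 and IFITM1 were lost in 4, 7 and 6 of the 8 fits that left out 1 library.

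IFI16, a nuclear sensor of foreign DNA, went the other way. It was at 4.01 and 3.73 CPM untreated, 2.61 and 1.93 CPM on doxycycline, 40.8 and 36.7 CPM with interferon and 45.2 and 40.01 CPM with both. The start libraries were apart and those under interferon overlapped. Interferon raised it by 3.32 ± 0.11 without doxycycline and by 4.23 ± 0.12 with it, an interaction of 0.91 ± 0.17 (edgeR, adjusted p = 0.0103). Leaving out untreated replicate 1, doxycycline replicate 2 or replicate 1 of both agents ended the call, with adjusted p up to 0.204.

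**Figure D2:**
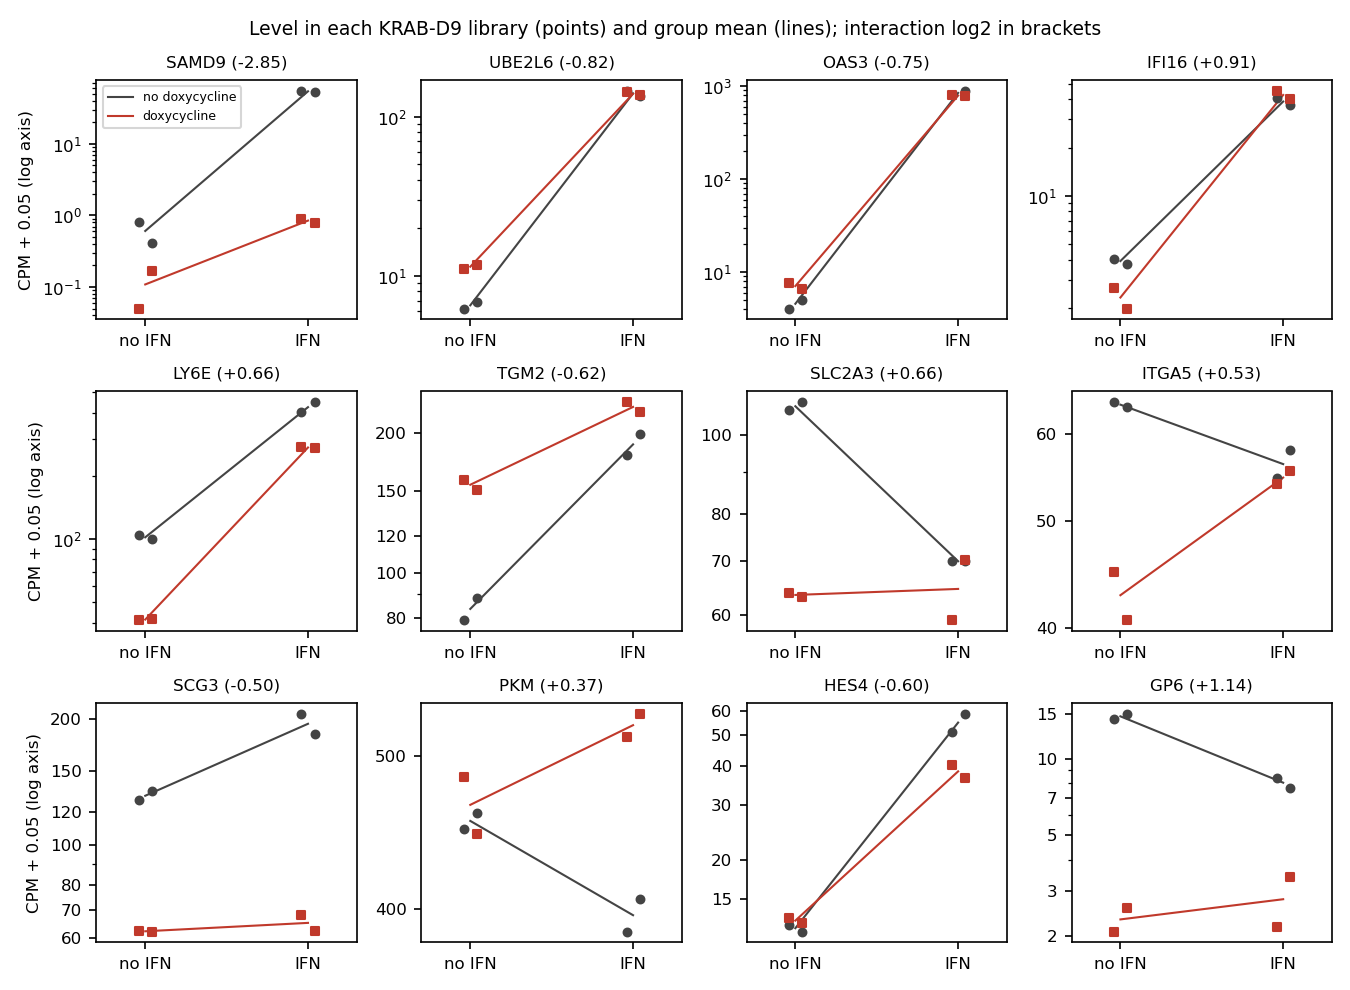
CPM of 12 genes in each of the 8 KRAB-D9 libraries (points, with 0.05 CPM added for the log axis) without and with interferon (IFN), grey circles without doxycycline and red squares with it; lines join group means, and the interaction stands in brackets. UBE2L6, OAS3 and IFI16 started apart and were close under interferon, SAMD9 and SCG3 drew apart, and PKM and HES4 started together.

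LY6E, TGM2, GMPR and KEL differed at both ends, less so under interferon. LY6E, a membrane-anchored Ly6 protein that limits the entry of coronaviruses, had the smallest adjusted p of the interaction. It lies on chromosome 8 at 143017982 to 143023832. Its level was 104.0 and 99.6 CPM untreated, 401.6 and 447.4 CPM with interferon, 41.1 and 41.5 CPM with doxycycline and 272.8 and 272.6 CPM with both. The doxycycline libraries were below their counterparts at both ends. Interferon raised it by 2.06 ± 0.05 without doxycycline and by 2.72 ± 0.05 with it, an interaction of 0.66 ± 0.07 (edgeR, adjusted p = 1.52e-07). The start difference was -1.30 ± 0.05 and the treated difference -0.64 ± 0.05. On the linear scale the order turned round: interferon added 322.7 CPM without doxycycline and 231.5 CPM with it. LY6E was the only one of the 35 called genes whose interaction had the opposite sign in CPM.

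TGM2, a transglutaminase that cross-links proteins, lies on chromosome 20 at 38127385 to 38166578. It was at 79.3 and 88.3 CPM untreated, 179.0 and 198.3 CPM with interferon, 158.2 and 151.0 CPM with doxycycline and 232.1 and 221.8 CPM with both. Doxycycline alone thus brought TGM2 to below the level that interferon reached, and the libraries with both agents were the highest. The interferon response was 1.17 ± 0.05 without doxycycline and 0.55 ± 0.05 with it (interaction -0.62 ± 0.07, edgeR, adjusted p = 3.73e-06). GMPR, which converts GMP to IMP, lies on chromosome 6 at 16238587 to 16295549 and behaved alike. Its libraries were at 68.2 and 63.6, 170.1 and 170.1, 111.7 and 113.6, and 206.5 and 195.9 CPM in the same order of groups. Its start difference was 0.77 ± 0.05, its treated difference 0.24 ± 0.05 and its interaction -0.53 ± 0.07 (adjusted p = 7.09e-06). KEL, the Kell blood group protein of red cells, had a start difference of 0.53 ± 0.04, a treated difference of 0.24 ± 0.04 and an interaction of -0.29 ± 0.06 (adjusted p = 0.0338).

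A group of genes with no large interferon response was lowered by doxycycline before interferon and met, or came nearer to, the other arm under interferon. SLC2A3, the neuronal-type glucose transporter GLUT3, lies on chromosome 12 at 7919230 to 7936187. It was at 107.3 and 109.7 CPM untreated and at 63.8 and 63.1 CPM on doxycycline. Interferon alone left it at 69.9 and 69.8 CPM, and both agents at 59.1 and 70.01 CPM. The untreated libraries stood above the other 6. Interferon lowered SLC2A3 by 0.64 ± 0.06 without doxycycline, while with it the change was 0.02 ± 0.06, and the interaction was 0.66 ± 0.08 (edgeR, adjusted p = 7.09e-06).

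ITGA5, the alpha subunit of the fibronectin receptor, lies on chromosome 12 at 54395261 to 54419266. It was at 64.0 and 63.4 CPM untreated, 54.6 and 57.9 CPM with interferon, 45.0 and 40.6 CPM with doxycycline and 54.0 and 55.5 CPM with both. The libraries under interferon overlapped. Interferon raised it on doxycycline (0.36 ± 0.06) and gave -0.18 ± 0.06 without (adjusted p = 0.0623), and the interaction was 0.53 ± 0.08 (edgeR, adjusted p = 4.98e-04). TNS2, a tensin of focal adhesions, was lowered by interferon without doxycycline (-0.64 ± 0.16) and raised with it (0.58 ± 0.17), with an interaction of 1.22 ± 0.23 (adjusted p = 0.0103) at 2.31 to 7.44 CPM. HEXIM1, an inhibitor of the transcription elongation factor P-TEFb, fell by 0.20 ± 0.06 with interferon alone and rose by 0.20 ± 0.06 on doxycycline (interaction 0.40 ± 0.08, adjusted p = 0.0242). PPP1R16B, a targeting subunit of protein phosphatase 1, had an interaction of 0.71 ± 0.16 (adjusted p = 0.0409). The long noncoding RNA PROSER2-AS1 had one of 0.52 ± 0.10 (adjusted p = 0.0109); the strand setting of the counting is not given, so its reads and those of the gene on the other strand cannot be told apart.

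GP6, PTPN7, LCP1, EPHB6 and STAR were lowered by doxycycline at both ends, less so under interferon. GP6, the collagen receptor of platelets, was at 14.3 and 14.9 CPM untreated, 8.34 and 7.63 CPM with interferon, 2.03 and 2.52 CPM with doxycycline and 2.11 and 3.37 CPM with both. Its start difference of -2.68 ± 0.17 narrowed to -1.54 ± 0.17, an interaction of 1.14 ± 0.24 (edgeR, adjusted p = 0.0309). PTPN7, a tyrosine phosphatase of haematopoietic cells, had an interaction of 0.35 ± 0.08, and LCP1, the actin-bundling protein L-plastin, one of 0.24 ± 0.05. EPHB6, an Eph receptor without kinase activity, was at 57.2 and 60.5 CPM untreated and 17.3 and 16.2 CPM on doxycycline, and its interaction was 0.70 ± 0.15 (adjusted p = 0.0409). STAR, which brings cholesterol into mitochondria, was raised by interferon on doxycycline (0.45 ± 0.06) and showed 0.06 ± 0.06 without it. Interferon alone lowered GP6, PTPN7, LCP1 and EPHB6, and their changes on doxycycline were not called. Of 13 megakaryocyte markers tested, doxycycline lowered 5 and raised 2 at the start, against 12.7% and 12% of all genes. Under interferon 4 were lower and 2 higher, against 11.9% and 10.4%. TUBB1 and NFE2 were the 2 raised at both. The summed level of the defining markers ITGA2B and GP6 was 32.7 to 33 CPM untreated, 19.4 to 22.4 CPM with interferon, 8.81 to 9.17 CPM with doxycycline and 7.57 to 10.7 CPM with both. GP6 is itself a called gene, and the sum leaves out the defining markers PF4 and GP9. The part of the megakaryocyte markers in the results for GP6, PTPN7, LCP1 and EPHB6 was not tested. In bulk RNA, fewer cells of a type and less RNA per cell cannot be told apart.

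The 9 genes with a wider difference under interferon went the other way. SCG3, a granin of secretory granules, lies on chromosome 15 at 51681492 to 51721026. It was at 127.6 and 134.2 CPM untreated, 205.4 and 183.6 CPM with interferon, 62.2 and 62.0 CPM with doxycycline and 68.0 and 62.1 CPM with both. The doxycycline libraries were below the others, and interferon raised SCG3 only where doxycycline was absent, by 0.57 ± 0.05 against 0.07 ± 0.06 (interaction -0.50 ± 0.08, edgeR, adjusted p = 3.59e-04). DHRS2, a short-chain dehydrogenase, rose from 9.82 and 11.1 to 20.9 and 22.2 CPM without doxycycline and stood at 7.18 and 6.57 against 7.71 and 9.35 CPM with it (-0.74 ± 0.14, adjusted p = 0.0129). The calls of DHRS2 were lost in 3 of the 8 fits that left out 1 library. HSP90B1, the endoplasmic reticulum chaperone GRP94, and ALDH1A2, which makes retinoic acid, were raised by interferon in both arms, less on doxycycline. Their interactions were -0.24 ± 0.05 (edgeR, adjusted p = 0.0242) and -0.22 ± 0.05 (adjusted p = 0.0409). Both lost their calls in most fits that left out 1 library, with interactions of -0.28 to -0.21 and -0.25 to -0.20. FTL, the light chain of ferritin, was at 2297 and 2169 CPM untreated, 2391 and 2366 CPM with interferon, 1746 and 1703 CPM with doxycycline and 1488 and 1561 CPM with both. Its start difference of -0.37 ± 0.04 widened to -0.64 ± 0.04 (interaction -0.27 ± 0.05, adjusted p = 0.0129), with the reserve that ferritin has many near-identical pseudogenes. FTL lost its call in some of the fits that left out 1 library, with interactions of -0.31 to -0.23.

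PKM, HES4 and RPS18 were called at the treated level only. PKM, the last enzyme of glycolysis, lies on chromosome 15 at 72199029 to 72231822. It was at 449.3 and 460.4 CPM untreated, 387.0 and 405.7 CPM with interferon, 484.8 and 446.5 CPM with doxycycline and 514.4 and 531.8 CPM with both. The start libraries overlapped, and under interferon those on doxycycline were higher. Interferon lowered PKM by 0.20 ± 0.04 without doxycycline and raised it by 0.17 ± 0.04 with it, an interaction of 0.37 ± 0.06 (edgeR, adjusted p = 5.67e-04). HES4, a repressor of the Hairy and Enhancer-of-split family, was at 12.4 and 11.8 CPM untreated and 13.04 and 12.5 CPM on doxycycline. Interferon took it to 51.2 and 58.5 CPM without doxycycline and to 40.3 and 36.4 CPM with it, so it rose in both arms and reached less on doxycycline (interaction -0.60 ± 0.13, adjusted p = 0.0318). RPS18, a protein of the small ribosomal subunit with many processed copies in the genome, had an interaction of -0.25 ± 0.05 (adjusted p = 0.0309). Leaving out 1 library lost HES4 in 5 of 8 fits and RPS18 in 6 of 8.

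The other called genes were raised by doxycycline before interferon or were scarce. GSTP1, a glutathione transferase, had an interaction of -0.29 ± 0.06 (edgeR, adjusted p = 0.0125) and the noncoding RNA LINC02193 one of -0.81 ± 0.17 (adjusted p = 0.0309). Both were called at the start only. ITGB7, NRG4 and ALDH1L1 had means under 1 CPM and were outside the rule for naming. ITGB7, an integrin of lymphocytes, had 16 counts over the untreated libraries, 127 with interferon, 106 with doxycycline and 108 with both. NRG4, a growth factor of the neuregulin family, had 5, 38, 40 and 31 counts. ALDH1L1, a folate enzyme, had 8, 46, 23 and 3 counts in the same order, so its treated difference rests on 3 counts. In ITGB7 and NRG4 the counts were lowest in untreated cells, while in ALDH1L1 they were lowest with both agents.

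Across the list of 83 interferon-stimulated genes tested, 7 were called (2 higher and 5 lower), against 0.158% of all genes. An unadjusted p under 0.05 was reached by 32 of the 83, against 1987 of all 22143 genes. Interferon raised 79 of the 83 in each arm. The estimate lay below 0 for 56 and above 0 for 27, against 11235 and 10857 of all genes. The median interaction was -0.24, against -0.004 over all genes. Doxycycline had raised 21 and lowered 15 of the 83 at the start, against 12% and 12.7% of all genes. Under interferon 8 were higher and 27 lower, against 10.4% and 11.9%. The doxycycline difference was narrower under interferon for 55 of the 83, against 52.5% of all genes. Without the 12 genes that had at most 3 counts over an untreated or a doxycycline group, the median was -0.24, and it lay between -0.14 and -0.24 in all other fits, those that left out 1 library included.

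Several of the lower treated levels had no measurable start. MX1, a GTPase that traps viral nucleocapsids, had no counts in the 4 KRAB-D9 libraries without interferon, and reached 1029 CPM with interferon and 781.9 CPM with both (treated difference -0.40, edgeR, adjusted p = 8.75e-07). IFI44L reached 66.3 and 32.0 CPM (-1.048, adjusted p = 1.22e-10), and OAS2 180.3 and 99.1 CPM (-0.86, adjusted p = 3.07e-08). IFI44L also had no counts before interferon and OAS2 had 2, both on doxycycline, so no log2 interaction is given for these 3 genes. Of the 12 genes with such a start, the treated level was lower on doxycycline for 6 and higher for none at the adjusted threshold, with 11 estimates below 0. Among genes with a start, IFIT3, a member of the antiviral IFIT complex, had 0.895 and 0.978 CPM before and 87.3 and 52.2 CPM after interferon as group means without and with doxycycline. Its interaction was -0.85 ± 0.25 (adjusted p = 0.202), with a treated difference of -0.74 (adjusted p = 1.01e-09). RSAD2, the antiviral enzyme viperin, had an interaction of -0.86 ± 0.17 (adjusted p = 0.0623), which the fit of the 8 libraries alone called (adjusted p = 7e-04).

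**Figure D3:**
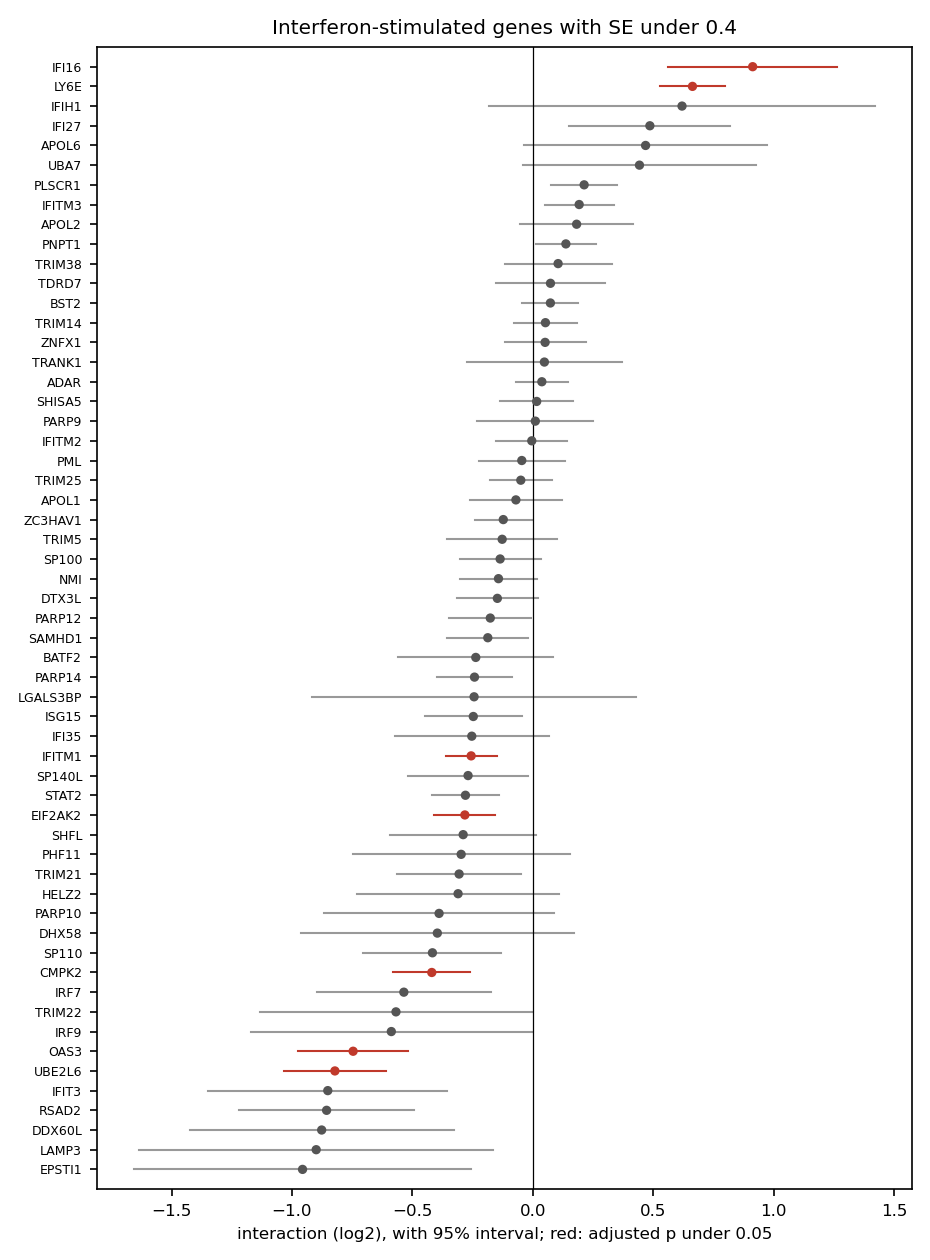
Interaction (log2, x axis) of 57 interferon-stimulated genes whose standard error was under 0.4 and whose start was measurable, each with its 95% interval; red marks adjusted p under 0.05. More estimates lie left of 0 than right of it, and 7 are called.

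The signalling chain itself showed no called interaction: of 24 genes of interferon receptor signalling, none was called (median -0.03, 11 above 0 and 13 below). Of the 24, 5 were at an unadjusted p under 0.05, against 1987 of all 22143 genes. STAT2 rose from 43.6 to 118.6 CPM without doxycycline and from 61.9 to 138.7 CPM with it, an interaction of -0.28 ± 0.07 (edgeR, adjusted p = 0.107). STAT2 was called higher on doxycycline at the start (0.50, adjusted p = 2.97e-10) and under interferon (0.22, adjusted p = 3.28e-04). IRF7, which amplifies the response, had an interaction of -0.54 ± 0.18 (adjusted p = 0.306). On the linear scale the difference in gain was 1.83 ± 4.22 CPM for STAT2, within its error, and 17.9 ± 4.59 CPM for IRF7, the opposite sign to its log2 interaction. PTPN6, the phosphatase SHP-1, was at 0.66 ± 0.23 (adjusted p = 0.341). Among 21 genes of class I antigen presentation none was called (median -0.05; 7 at an unadjusted p under 0.05), with the proteasome activator PSME2 at -0.28 ± 0.07 (adjusted p = 0.118) and B2M, the light chain of class I molecules, at -0.15 ± 0.06 (adjusted p = 0.363).

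Outside the interferon system, most estimates lay below 0 for the ribosomal protein genes and above 0 for the G1/S genes, with 1 call among them. Of 79 cytosolic ribosomal protein genes, RPS18 was called lower and 68 estimates were below 0 (median -0.14). At an unadjusted p under 0.05 were 41 of the 79, against 1987 of all 22143 genes. Over all genes tested, 11235 estimates were below 0 and 10857 above. RPL29 was at -0.24 ± 0.06 (edgeR, adjusted p = 0.118) and RPS4X at -0.20 ± 0.05 (adjusted p = 0.123). Interferon was called to lower 18 of the 79 without doxycycline, against 2.42% of all genes, and 45 with it, against 1.77%. The difference between these counts was not tested, and of the 79 interactions themselves 1 was called. Without replicate 2 of interferon alone, 43 of the 79 interactions were called, and the median was -0.18; without replicate 1 it was -0.08 with no call. Of 29 G1/S genes none was called and 25 estimates were above 0 (median 0.14; 16 at an unadjusted p under 0.05), with TYMS, which makes thymidylate, at 0.27 ± 0.07 (adjusted p = 0.118) and UHRF1, which maintains DNA methylation, at 0.33 ± 0.09 (adjusted p = 0.146). Without replicate 2 of interferon alone 10 of the 29 were called.

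Ribosome biogenesis factors were lowered by doxycycline alike at both ends. Doxycycline lowered 98 of 117 at the start, against 12.7% of all genes, and 99 under interferon, against 11.9%. None had a called interaction (median 0.01, with 19 at an unadjusted p under 0.05, against 1987 of all 22143 genes). RRS1, which assembles the large subunit, was at 0.25 ± 0.08 (adjusted p = 0.306). Of 25 cholesterol synthesis genes none was called and 21 estimates were above 0 (median 0.10; 8 at an unadjusted p under 0.05), with MVD at 0.25 ± 0.08 (adjusted p = 0.242) and INSIG1 at 0.22 ± 0.07 (adjusted p = 0.2697). The p53 targets had none of 19 called (median 0.08; 4 at an unadjusted p under 0.05), with CDKN1A, the inhibitor p21, at 0.49 ± 0.21 (adjusted p = 0.474). Among 40 erythroid markers KEL was called, and 31 estimates were below 0 (median -0.13). Of the 40, 14 were at an unadjusted p under 0.05. Over all genes tested, 11235 estimates were below 0 and 10857 above. ALAS2, the first enzyme of haem synthesis in red cells, was at -0.27 ± 0.06 (adjusted p = 0.0565).

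The mitochondrially encoded messages showed how far 1 library could reach. None of 13 was called (median -0.08; 2 at an unadjusted p under 0.05), and the median was 0.10 without replicate 1 of interferon alone (1 called) and -0.24 without replicate 2 (5 called). MT-CO1 was at -0.16 ± 0.06 and MT-ND2 at -0.15 ± 0.09, which became 0.002 without replicate 1. No member was called in the integrated stress response (44 tested, median -0.03 without genes of at most 3 start counts; 5 at an unadjusted p under 0.05), the G2/M genes (32, -0.02; 1), the inflammatory NF-kB targets (18, -0.08; 2), or the myeloid (12, 0.14; 3), lymphoid (12, 0.62; 2) and fibroblast or epithelial markers (11, 0.10; 3), given in the same way. With the genes of few start counts included, the medians of the NF-kB, myeloid and lymphoid lists were -0.02, 0.41 and 0.44. Over all 22143 genes, 1987 were at an unadjusted p under 0.05. The megakaryocyte list had GP6 called among 13 (median 0.15).

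Parental K562 cells, given interferon without doxycycline, offer another response, from libraries that no KRAB-D9 contrast uses. Interferon changed 16 of the 35 called genes there, against 4.34% of all genes (3.03% higher and 1.31% lower). The parental estimate lay between those of the KRAB-D9 arms for 25 of the 35. It was nearer to the arm with doxycycline for 21 and nearer to the arm without it for 14. The 35 were chosen because the arms differ, and these counts were not made over all genes. They do not tell which arm changed. LY6E rose by 2.73 ± 0.05 in parental cells, against 2.72 ± 0.05 in KRAB-D9 on doxycycline and 2.06 ± 0.05 without it. TGM2 and GMPR rose by 1.27 ± 0.05 and 1.42 ± 0.05, near the 1.17 and 1.37 of KRAB-D9 without doxycycline. Of the 10 called genes that interferon lowered in KRAB-D9 without doxycycline, none was called in parental cells. SLC2A3 was at -0.02 ± 0.06 there, PKM at 0.08 ± 0.04, TNS2 at -0.00 ± 0.19 and GP6 at 0.07 ± 0.15. These 10 genes rest on the 2 libraries of interferon alone that stood apart from each other, and the part of those libraries in the difference between the lines was not tested. CMPK2 stood outside both arms, with a parental response of 3.0 ± 0.06 against 1.88 and 1.46.

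**Figure D4:**
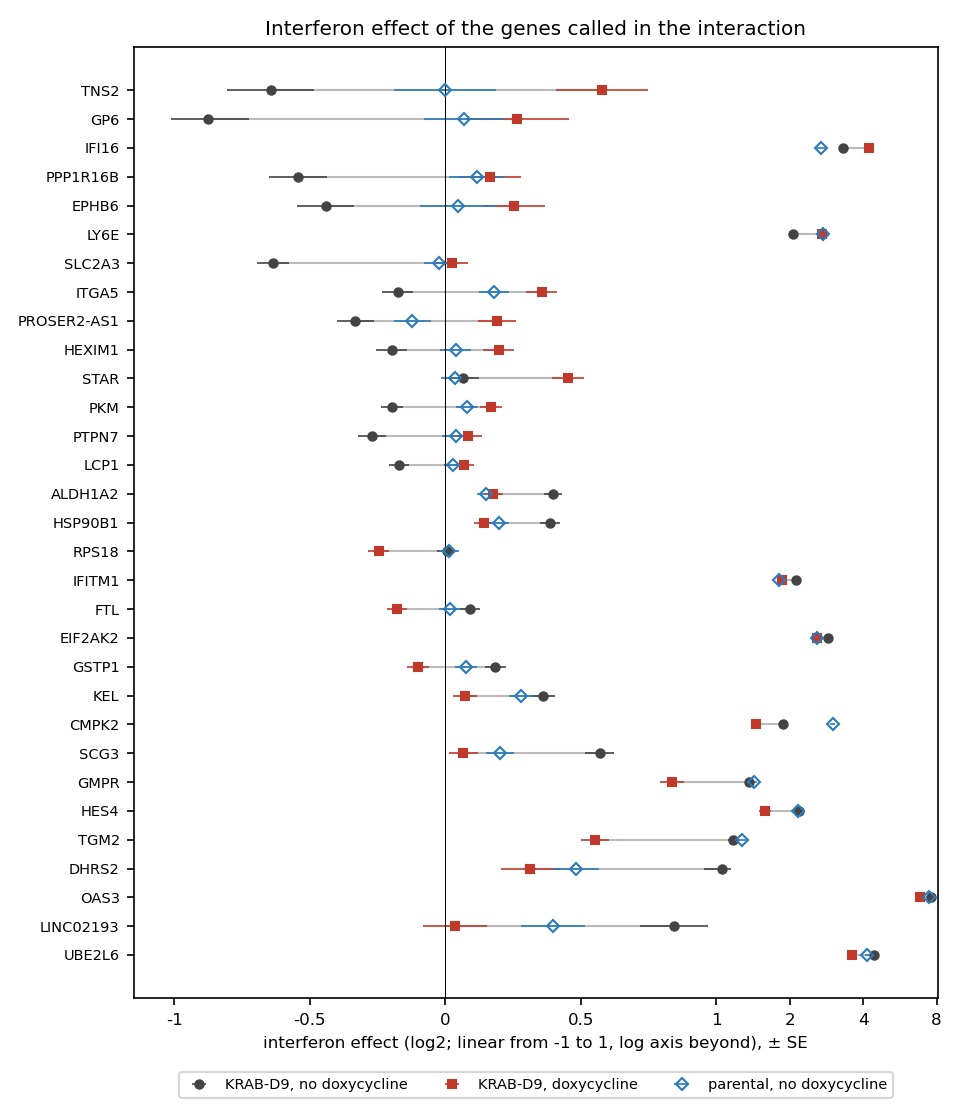
Interferon effect (log2 ± SE) of 31 of the 32 called genes at 1 CPM or more in KRAB-D9 without doxycycline (grey circles), KRAB-D9 with it (red squares) and parental cells (open blue diamonds); the axis is linear from -1 to 1 and logarithmic beyond. The grey line between circle and square is the interaction; the parental LY6E lies on the red square and the parental TGM2 and GMPR beside the circle.

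How many genes were called depended on the libraries used. All 35 kept their sign in each of the 8 fits that left out 1 library, and 8 were called in all of them: LY6E, TGM2, GMPR, SLC2A3, UBE2L6, SCG3, ITGA5 and PKM. OAS3 lost its call in 1 of the 8 fits, and the other 26 lost theirs in 3 to 7 of them. The number called fell to 11 without untreated replicate 1 and rose to 732 without replicate 2 of interferon alone, among which were all 35. Without replicate 1 of interferon alone it was 36, of which 22 were among the 35. The fit of the 8 KRAB-D9 libraries alone called 14, and 11 of these were among the 35. The other 3 were RSAD2 and the mitochondrial ribosomal RNAs MT-RNR1 (-0.81) and MT-RNR2 (-0.66). With a separate weight for each group in limma voom, where interferon alone received 0.659 against 0.898 to 1.16, 23 genes were called, 16 of them among the 35. PKM lost its call there (adjusted p = 0.144). LY6E, TGM2, GMPR, SLC2A3, UBE2L6, SCG3, ITGA5 and EPHB6 were called under all 7 other choices of scaling, filter, tool, libraries, weights and block. Of these, EPHB6 lost its call in most fits that left out 1 library, with interactions of 0.57 to 0.84.

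**Figure D5:**
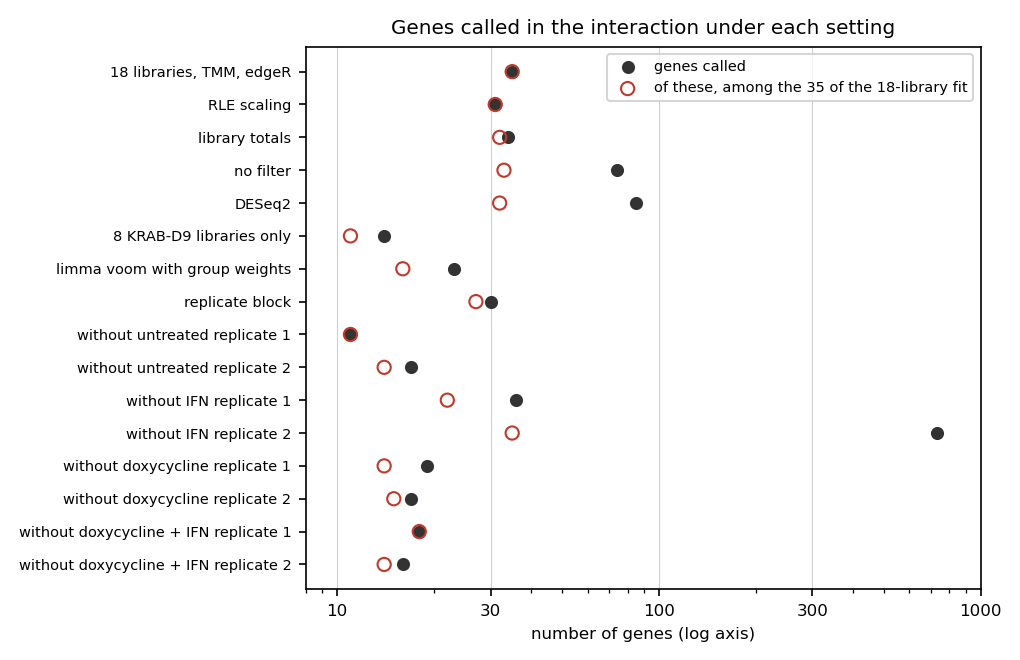
Number of genes called in the interaction (x axis, log scale) in the 18-library fit and under the 15 other settings (filled circles), and how many of them are among the 35 of the 18-library fit (open red circles). Without replicate 2 of interferon alone (IFN) 732 genes are called; elsewhere the number lies between 11 and 85.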

How the data were processed

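RNA of 18 libraries (9 groups of 2) was measured by polyA-selected, stranded RNA-seq, per the labels' protocols. What the authors deposited is a table of whole-number counts, not normalized, for 41285 genes. Per the submitters' processing notes, featureCounts 2.0.2, STAR 2.7.8a, cutadapt 2.10 and FastQC 0.11.9 were used with GRCh38.p13. Annotation release, strand setting and the treatment of multiply mapped reads are not stated, so genes with near-identical copies or overlapping neighbours are uncertain. Gene positions are those of the count table.

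Groups came from the sample titles. Genes were filtered with filterByExpr by group (22143 kept), counts were scaled by TMM, and all 18 libraries entered 1 robust edgeR 4.0.16 quasi-likelihood model (R 4.3.3) with a mean for each of the 9 groups (9 residual degrees of freedom, common biological coefficient of variation 0.0569). All contrasts came from this fit, with Benjamini-Hochberg adjustment over all genes and a threshold of 0.05. Levels are TMM-scaled CPM. Standard errors are the size of the log2 change over the square root of F, and intervals are 95%. Dispersion is shared over groups, so errors that involve interferon alone may be too small. No log2 interaction is given where an untreated or doxycycline group had at most 3 counts.

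On simulated counts for 20969 genes, 77.6% of interactions of log2 0.5 (67 genes) and all of log2 1 and 2 (100%) were called, with 11 false calls. The called genes and the 17 lists were chosen with earlier results of these data known. Named are SAMD9 and SAMD9L, the 12 most positive and 12 most negative called genes with a mean of at least 1 CPM and the same sign in every fit without 1 library, 4 of each class, and 3 of each list by smallest adjusted p; other named genes were chosen after their values were seen. Some genes stand in more than 1 list. A few genes counted in the totals are not reported by name here, and 1 is left out of each of 2 figures. Alternatives were RLE scaling, library totals, no filter, DESeq2 1.42.0, the 8 KRAB-D9 libraries alone, limma 3.58.1 voom with group weights, the replicate number as a block, each library left out in turn, the linear CPM scale and another placing rule. VPR-D9 libraries entered the fit only for the shared spread.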

Additional observations from a re-analysis of the deposited data

Results flagged for a closer look

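Some of the called genes responded to interferon differently in KRAB-D9 and in parental cells by a test of the difference itself (edgeR quasi-likelihood, Benjamini-Hochberg adjusted over all genes, 2 libraries in each of 4 groups; 0.275% of all genes were called for the arm with doxycycline and 0.303% for the arm without). This comparison was added after the data were seen, and no explanation was tested. Unless stated otherwise, values are log2 differences, KRAB-D9 minus parental.

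With doxycycline, the log2 change in KRAB-D9 was lower for CMPK2 (-1.54), TGM2 (-0.72), OAS3 (-0.631), GMPR (-0.587), HES4 (-0.581), UBE2L6 (-0.534) and RPS18 (-0.261). For RPS18 this was a fall in KRAB-D9 (interferon effect -0.25) beside an effect of 0.01 in parental cells. The log2 change was higher for IFI16 (1.54) and STAR (0.418). Adjusted p ran from 5.27e-16 for CMPK2 to 0.0291 for HES4. A lower log2 change did not always go with a lower level. As group means, interferon took CMPK2 from 14.2 to 113.8 CPM in parental cells and from 63.4 to 173.9 CPM in KRAB-D9 on doxycycline. TGM2, OAS3, GMPR and UBE2L6 reached 226.9, 793, 201.2 and 138.8 CPM there, against 175.1, 663.9, 150.6 and 120.3 CPM in parental cells. HES4 reached less, 38.3 against 48.6 CPM. These levels were not tested between the lines.

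Without doxycycline, the log2 change was lower for CMPK2 (-1.12), GP6 (-0.946), LY6E (-0.666), PPP1R16B (-0.661), SLC2A3 (-0.613), ITGA5 (-0.356), PTPN7 (-0.31) and PKM (-0.278). CMPK2 and LY6E rose in both lines, and ITGA5 was called in neither. Interferon lowered GP6 (effect -0.88), PPP1R16B (-0.54), SLC2A3 (-0.64), PTPN7 (-0.27) and PKM (-0.20) in KRAB-D9. Their parental effects were 0.07, 0.12, -0.02, 0.04 and 0.08, none of them called. The log2 change was higher for NRG4 (3.36, from few counts), DHRS2 (0.569), SCG3 (0.367), IFITM1 (0.3), EIF2AK2 (0.287) and ALDH1A2 (0.246). Adjusted p ran from 2.33e-11 for CMPK2 to 0.0422 for PTPN7. CMPK2 was the gene called in both comparisons, which share the parental libraries.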

How the results depend on the processing

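The sign of each of the 35 called interactions was kept under every scaling, filter, tool and left-out library; on the linear CPM scale LY6E turned to -91.3 CPM. Counts moved more. Without a filter on low counts 74 genes were called (32 higher, 42 lower; 36 at the start only, 16 under interferon only, 22 at both; 53 with the narrower difference under interferon). DESeq2 called 85 (47 higher, 38 lower; 29, 15 and 41; 60 narrower) of 10552 genes with an adjusted p. The 8 KRAB-D9 libraries alone gave 14 (5 higher, 9 lower; 5 at the start only and 6 at both; 10 narrower). Voom with group weights gave 23 (8 higher; 6 at the start only and 1 under interferon only; 17 narrower). Placing by the larger difference gave 26 and 9. RLE scaling called 31 genes and library totals 34.

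Leaving out 1 library gave 11 to 732 calls, 6 to 448 higher and 5 to 284 lower, with 5 to 271 at the start only, 1 to 246 under interferon only, 5 to 207 at both and 0 to 8 at neither, and 8 to 344 with the narrower difference. The cause was not tested. Of the genes named by the rule, 3 changed sign when 1 library was left out: SAMD9 ran from -3.81 to 1.86 (without doxycycline replicate 2, which held its only counts), MT-ND2 from -0.293 to 0.00218 (without replicate 1 of interferon alone) and THBS1 from -0.0455 (without replicate 2 of both agents) to 1.23, and in CPM the sign also differed for STAT2 (1.83 ± 4.22, within its error) and IRF7 (17.9). The labels give groups the same replicate numbers but do not say that they pair samples. Deviations of same-numbered libraries correlated at 0.0038 to 0.165 between groups over 9125 genes, and with the replicate number as a block 30 genes were called, 27 of them among the 35. In the simulation of the interaction, 77.6% of those of log2 0.5 were recovered, so some of that size may be missed. The simulated sizes given here are 0.5, 1 and 2, so smaller interactions are not covered.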
